A study of Homo sapiens with 13 samples.

Results

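Axon guidance ligands and receptors tell a growing nerve fibre where to go, and the genes that encode them were examined here in the open chromatin of 2 small cell lung cancer lines. The set was fixed by gene symbol and by no measured value, although it was chosen with earlier results of these data known. It took every protein-coding gene of the GENCODE release 44 annotation that encodes an ephrin, an Eph receptor, a semaphorin, a plexin, a neuropilin, a SLIT, a ROBO receptor, NTN1, NTN3 or NTN4, an UNC5 receptor or DCC. That gave 68 genes of the 20033 protein-coding genes on the 24 chromosomes. They are 8 ephrins, 14 Eph receptors, 20 semaphorins, 9 plexins, 2 neuropilins, 3 SLIT ligands, 4 ROBO receptors, 3 netrins and, taken as 1 family, the 5 genes of the UNC5 receptors and DCC.

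ATAC-seq, in which a transposase cuts accessible DNA and marks it for sequencing, was run on H82 and H146, established human small cell lung cancer lines that are labelled wild type. SMARCA4 is an ATPase of the SWI/SNF chromatin remodelling complex, and FHD-286 inhibits it and the related SMARCA2. H146 had 4 untreated libraries and 3 from cells kept in 100 nM FHD-286 for 14 days, and H82 had 3 untreated libraries and 3 treated in the same way. Cells were frozen viably before transposition, and by the methods 1 of the H146 controls was sequenced with the treated H146 libraries and the other 3 in another batch, without a label that tells which. The files used here hold 1 list of accessible regions for each line, made over all its libraries, with a chromosome, a start and an end and no counts. There was thus 1 value per gene and line, without replicates and without a test, the treated and untreated cells could not be compared, and the depth is unknown. Both lists could hold regions seen only in treated cells.

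Ephrins are membrane-bound ligands of the Eph receptor tyrosine kinases, and both sides of a cell contact can signal. Semaphorins act through plexins, with neuropilins as co-receptors for most secreted semaphorins, SLIT proteins repel axons through ROBO receptors, and netrins attract through DCC or repel through UNC5 receptors. The same molecules steer migrating neurons, blood vessels and neural crest cells, and many are also active in tumours.

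The H82 list held 206927 regions over 167 Mb, 5.41% of the chromosomes, and the H146 list 174093 regions over 138.6 Mb, 4.49%, so the H82 list covered more bases in general. The lists also rest on different numbers of libraries, and depth and DNA copies, which were not measured here, cannot be told apart from a difference in accessibility. As a check of the labelled cell type, CHGA, INSM1, NCAM1 and SYP, genes of neuroendocrine cells, had a region at most 1 kb from their transcription start site (TSS) in both lines, and NEUROD1 had one in H82 only. PTPRC, CD3E and CDH5, which mark blood and endothelial cells, had none in either line. PECAM1, COL1A1 and PDGFRB, markers of endothelial cells and fibroblasts, had one in both lines, as did REST, YAP1 and POU2F3 of cells with low neuroendocrine character, and WWTR1 had one in H82 only.

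Nearly all of the guidance genes were accessible at the start in both lines. The TSS was taken as the annotated 5′ end of the gene. Of the 68 genes, 63 had a region within 1 kb of it in both lines, against 75.4% of all protein-coding genes. All 8 ephrins, all 14 Eph receptors, both neuropilins, all 3 netrins and all 5 genes of the UNC5 and DCC family were among them. SEMA6B, SLIT3 and ROBO4 had a region in H82 only, a class that holds 5.1% of all genes. SEMA3C was the single gene with a region in H146 only, against 1.86% of all genes, and PLXNA4 was the single gene with none in either line, against 17.7%. The promoters were richer in CpG than those of other genes. In the 250 bp to either side of the TSS, the ratio of observed to expected CpG was at least 0.6 in 54 of the 68 guidance genes (79.4%) and in 61.1% of all genes. Within that class, 96.3% of the guidance genes and 94.5% of all genes had a TSS region in both lines. Below it the shares were 78.6% (11 of 14) and 45.4%.

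**Figure D1:**
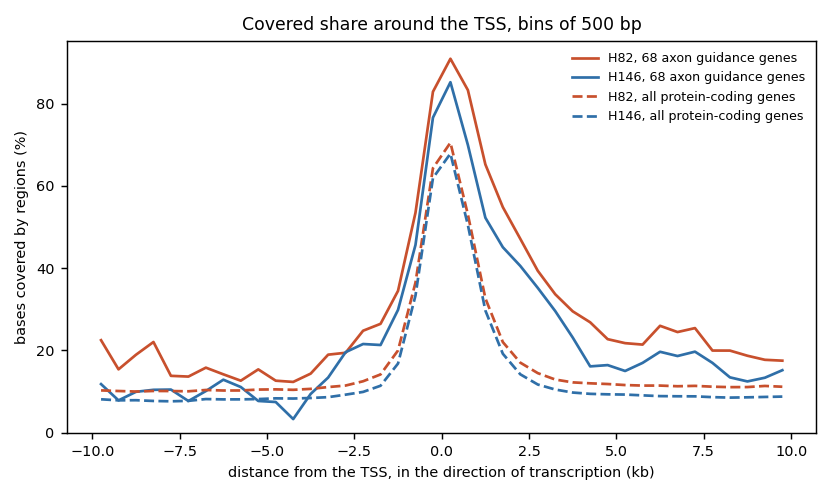
Share of bases covered by regions (%, y axis) in bins of 500 bp around the TSS (kb, x axis, positive in the direction of transcription), averaged over the 68 axon guidance genes (solid) or all protein-coding genes (dashed), for H82 (red) and H146 (blue). In the first 500 bp after the TSS the guidance genes reached 90.9% in H82 and 85.2% in H146, and their curves lie above those of all genes well into the gene body.

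SLIT3, a secreted repellent of the SLIT family, showed the clearest contrast at a start site. Its TSS at position 169301139 of chromosome 5 (hg38) lay inside an H82 region of 455 bp, and the nearest H146 region was 280.4 kb away. ROBO4, a divergent SLIT receptor best known from blood vessels, was covered in H82 by 803 bp of open chromatin at its TSS (position 124898500 of chromosome 11), and the nearest H146 region lay 4.89 kb away. SEMA6B, a transmembrane semaphorin, was covered at its TSS on chromosome 19 by 4866 bp in H82, with the nearest H146 region, of 343 bp, 2.35 kb away. Its MANE Select transcript, the reference transcript chosen jointly by Ensembl and RefSeq, starts 22.1 kb further in. That start also lay in a region in H82, of 241 bp, while the nearest H146 region was 2.40 kb away.

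SEMA3C and PLXNA4, a secreted semaphorin and a plexin that receives class 3 and class 6 semaphorins, owe their classes to the start site used. SEMA3C had an H146 region of 368 bp at 0.892 kb from its annotated 5′ end, and the nearest H82 region was 1.94 kb away. At its MANE Select start, 3308 bp downstream, both lines had a region, of 1777 bp in H82 and 768 bp in H146. PLXNA4 likewise had regions of 2608 and 2569 bp over its MANE Select start. Taken at that start, a choice added after the data were seen, 64 of the 68 genes had a region in both lines and 4 in H82 only. The added H82-only gene was SEMA4A, whose MANE Select start was 6 bp from an H82 region and 3.46 kb from the nearest H146 region.

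Sequences before RefSeq start sites are shown for the contrasts just described. For SLIT3 and ROBO4 this is a start open in H82 alone, and for SEMA3C an AT-rich outer start beside a CpG-rich inner one. The ROBO4 bases precede its MANE Select start (position 124897865), 635 bp downstream of the annotated 5′ end, and so lie inside the annotated gene. That start lay in the same H82 region of 803 bp, and the nearest H146 region was 5.53 kb away. A RefSeq promoter entry (GRCh38.p14) matched 58 of the 68 genes. The bases before the RefSeq start that lie in no annotated exon are printed 5′ to 3′ on the minus strand. They span chr5:169301140-169301389 for SLIT3, chr11:124897869-124898115 for ROBO4, chr7:80922390-80922639 for the outer SEMA3C start and chr7:80919184-80919301 for the inner one. The H82 list covered 187 of 250 bases for SLIT3 and all 247 for ROBO4, and the H146 list none of either. Neither list covered the outer SEMA3C sequence, and both covered all 118 bases of the inner one. GC made up 62.8% of the SLIT3 sequence, 55.1% of ROBO4, 36.4% of the outer SEMA3C sequence and 78.8% of the inner one. None of the 4 sequences holds any of the 4 transcription factor words described with the line-only regions, so none has capitals.
SLIT3: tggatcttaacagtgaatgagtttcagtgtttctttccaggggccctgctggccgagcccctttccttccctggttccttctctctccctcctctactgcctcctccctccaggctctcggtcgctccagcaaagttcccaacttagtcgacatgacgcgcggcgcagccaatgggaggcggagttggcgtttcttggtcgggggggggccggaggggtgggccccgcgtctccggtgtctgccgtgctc
ROBO4: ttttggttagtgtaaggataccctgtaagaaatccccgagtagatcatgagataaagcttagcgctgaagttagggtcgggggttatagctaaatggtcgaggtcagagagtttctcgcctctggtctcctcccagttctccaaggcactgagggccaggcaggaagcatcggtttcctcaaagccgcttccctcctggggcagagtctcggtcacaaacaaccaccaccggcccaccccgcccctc
SEMA3C outer: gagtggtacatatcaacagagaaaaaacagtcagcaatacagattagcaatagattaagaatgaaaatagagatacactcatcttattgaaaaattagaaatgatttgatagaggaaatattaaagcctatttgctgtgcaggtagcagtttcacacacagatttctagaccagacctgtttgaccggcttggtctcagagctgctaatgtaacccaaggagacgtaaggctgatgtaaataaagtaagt
SEMA3C inner: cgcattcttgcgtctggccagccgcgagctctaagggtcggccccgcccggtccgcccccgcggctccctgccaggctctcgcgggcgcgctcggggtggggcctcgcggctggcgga

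Where a guidance gene had a TSS region, that region was wide. Widths are those of the union lists, in which peaks near each other were joined. The widest region within 1 kb of the TSS had a median of 3179.5 bp in H82 over the 66 guidance genes with one, and 2442.5 bp in H146 over 64 genes. Over all protein-coding genes with a TSS region the medians were 1774 and 1708 bp. A TSS region of at least 5 kb stood at 12 of the 66 genes in H82 (18.2%) and at 9 of the 64 in H146 (14.1%), against 5.62% and 4.34% of all genes. The widest of those in H146 were at EPHB3, a receptor for B-type ephrins, with 12855 bp and 10138 bp in H82, and at NTN3, a netrin, with 12379 bp and 10522 bp in H82. Widths also differed between the lines at genes open in both. EFNA2, an A-type ephrin held in the membrane by a lipid anchor, had a TSS region of 9896 bp in H82 and 432 bp in H146. UNC5C, a netrin receptor of the repulsive class, had 3200 and 287 bp, and its relative UNC5D had 1466 and 271 bp. ROBO1, the main SLIT receptor of commissural axons, went the other way with 585 bp in H82 and 2440 bp in H146.

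**Figure D2:**
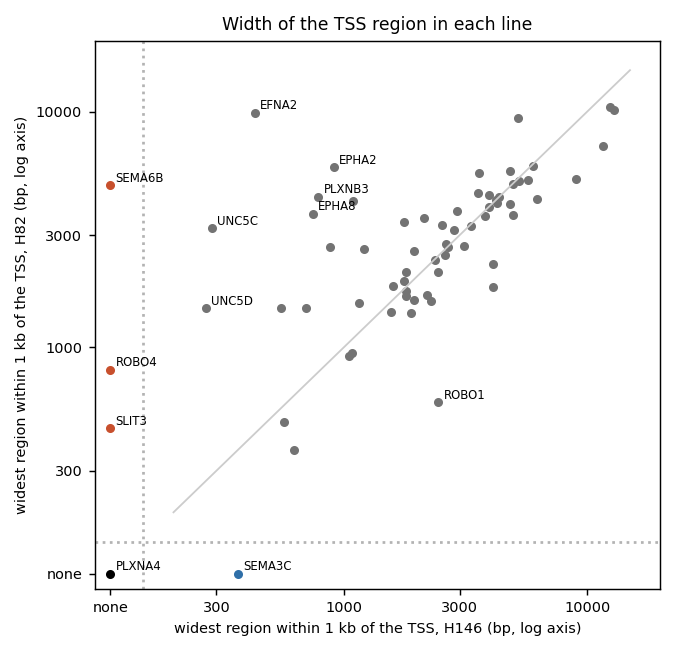
Width of the widest region within 1 kb of the TSS in H146 (x axis, bp, log scale) and H82 (y axis, bp, log scale), one point per gene, with genes that have no region placed at "none" beyond the dotted lines and the diagonal marking equal widths. SEMA6B, ROBO4 and SLIT3 stand at "none" for H146, SEMA3C at "none" for H82 and PLXNA4 at both, and genes whose widths differ more than 4-fold are named.

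Over the whole gene, the gene body with 10 kb to either side (the gene span), H82 covered more than H146 in most guidance genes. The covered share was higher in H82 in 48 of the 68 genes (70.6%) and higher in H146 in 20, while 59.4% of all genes were higher in H82. With each line's bases divided by its total, 35 of the 68 genes (51.5%) were higher in H82 and 33 in H146, against 42.8% of all genes higher in H82. The median share over the guidance genes was 16.1% in H82 and 10.2% in H146, and over all genes 8.10% and 6.69%. Pooled over their bases, the guidance spans were covered to 8.41% in H82 and 6.60% in H146, a ratio of 1.27, and the spans of all genes to 8.91% and 7.31%, a ratio of 1.22. The 34 genes of the ligand families had a pooled ratio of 1.47 and the 34 of the receptor families 1.17. Pooling by bases gives long genes the most weight. Counted per gene, 26 ligand and 22 receptor genes were higher in H82, and 12 and 10 were covered at least 2 times as much there.

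A span covered at least 2 times as much in H82 was found at 22 guidance genes (32.4%), against 16.3% of all genes, and a span covered at least 2 times as much in H146 at 0, against 2.78%. Semaphorins gave 9 of the 22 and Eph receptors 6, with 2 each from the ephrins, the plexins and the UNC5 and DCC family and 1 from the SLIT ligands. No neuropilin, ROBO receptor or netrin was among them. Within 10 kb of the TSS, 16 genes were covered at least 2 times as much in H82, against 14.3% of all genes, and 1 in H146, ROBO1, against 3.59%. Of the 22 genes past this fold over the span, 13 were also past it around the TSS.

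Much of this moved with the DNA around the genes. The covered share of 1 Mb to either side of each span had a median H82 to H146 ratio of 1.75 over the 22 genes, 1.05 over the other 46 and 1.17 over all genes. All 22 had surroundings richer in H82, and at 9 of them the surroundings alone reached 2 times. Once each span was divided by its surroundings, a scaling added after the data were seen, only SEMA3G, PLXNA4, SLIT3 and UNC5D stayed at least 2 times higher in H82 (4 genes, 5.88%, against 7.07% of all genes). EFNB1, a transmembrane ephrin, became at least 2 times higher in H146 (1 gene, 1.47%, against 5.21%), since its surroundings had a ratio of 2.90 and its span one of 1.22. On that scale 33 of the 68 genes were higher in H82 and 35 in H146. Whether the surroundings differ through DNA copies was not tested. Dividing by the line totals gave 17 genes at least 2 times higher in H82, against 11.7% of all genes, and 1 in H146, UNC5B.

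**Figure D3:**
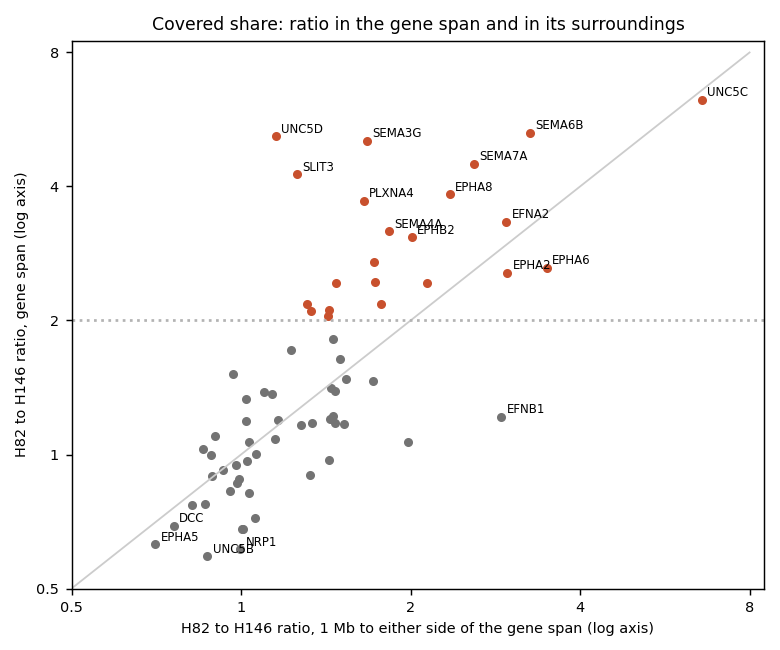
Ratio of covered share, H82 to H146, over 1 Mb to either side of each gene span (x axis, log scale) and over the span itself (y axis, log scale), one point per gene, red where the span ratio is at least 2 (dotted line), with the diagonal marking equal ratios. UNC5C, EFNA2, EPHA2 and EPHA6 lie close to the diagonal, and SLIT3, UNC5D, SEMA3G and PLXNA4 far above it.

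Among the ephrins, EFNA2 had the largest difference of all 68 genes. Its span on chromosome 19 (chr19:1285873-1301431 for the gene) was covered to 68.2% in H82 and 20.5% in H146, and its surroundings to 39.6% and 13.4%. No H146 region in the span lacked an H82 counterpart, while 7 of the 10 H82 regions lacked an H146 one. EFNB3, a transmembrane ephrin of the spinal cord midline, was covered to 58.3% in H82 and 28.5% in H146, a ratio of 2.04, with 1.43 in its surroundings. Around the TSS, EFNA2 had 93.7% of the 20 kb window covered in H82 and 36.4% in H146, and EFNA3, the highest ephrin by the mean of both lines, 74.2% and 59.3%. EFNA1, EFNA3 and EFNA4 are neighbours on chromosome 1 and had ratios from 1.18 to 1.22, and the spans of EFNA3 and EFNA4 overlap. The remaining ephrins were close to even. EFNB2, which marks arteries and guides axons through EPHB receptors, was covered to 21.1% and 21.8%, and EFNA5, a repellent of retinal axons, to 8.81% and 7.39%.

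The Eph receptors differed among themselves in which line covered them more. EPHA6, a large A-type receptor gene (chr3:96814581-97761532), carried 53 H82-only regions against 6 H146-only ones, where line-only means that no base was shared with a region of the other line. Its span was covered to 4.11% in H82 and 1.56% in H146, a ratio of 2.63, and its surroundings had the higher ratio of 3.49. EPHB2, a receptor for B-type ephrins (chr1:22710839-22921500), had 43 H82-only and 4 H146-only regions, with 18.1% and 5.88% covered. Its ratio was 3.08, and 2.01 in the surroundings, where EPHA8 lies nearby with a ratio of 3.84. Around the TSS EPHB2 and EPHA6 were nearly even, with 17.5% against 14.8% and 13.5% against 15.6% of the 20 kb window. The excess in H82 thus lay outside that window. EPHA10 and EPHB6, receptors without kinase activity, had ratios of 2.71 and 2.17, and EPHA2, an epithelial receptor, 2.56 beside 2.97 in its surroundings.

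Other Eph receptors were higher in H146. EPHA5, a receptor of the developing forebrain, was covered to 2.78% in H82 and 4.43% in H146, a ratio of 0.628, with 0.703 in its surroundings. It had 8 H146-only regions and 0 H82-only ones. EPHB1 was covered to 12.6% and 15.2% and had 17 H146-only and 4 H82-only regions. EPHA3 and EPHA7, both A-type receptors, were within 1.2 times of each other between the lines. EPHB3 was the most covered, at 72.2% of its span in H82 and 62.1% in H146.

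**Figure D4:**
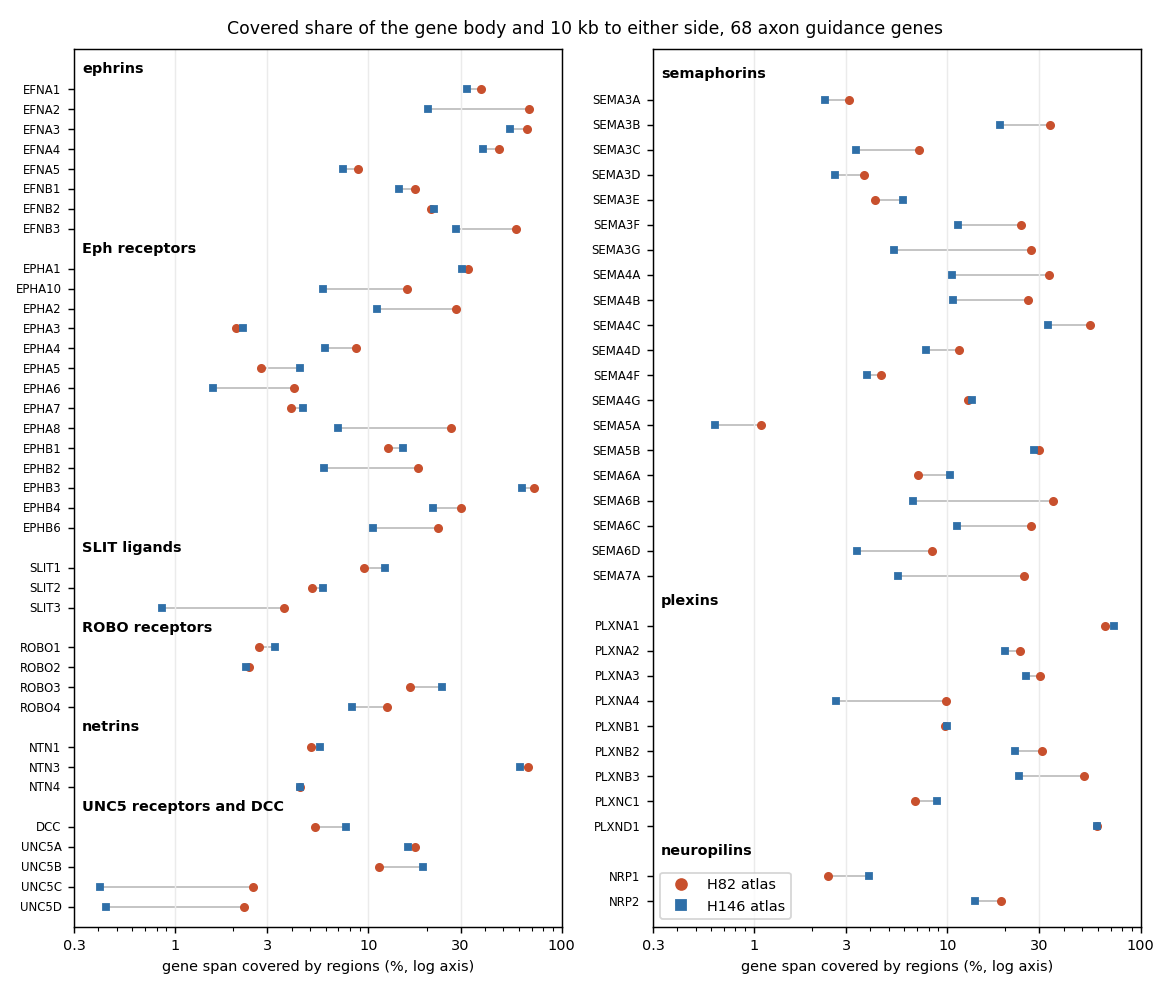
Share of each gene span covered by regions (%, x axis, log scale) in H82 (red circles) and H146 (blue squares), one line per gene, grouped by family, 1 value per line without replicates. The longest red-over-blue gaps are at UNC5C, SEMA6B, UNC5D, SEMA3G, SEMA7A and SLIT3, and blue lies to the right at UNC5B, NRP1 and EPHA5.

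Semaphorins had the highest pooled ratio of any family, 1.66, with 17 of the 20 genes covered more in H82. SEMA6B, a transmembrane ligand of class A plexins, was covered to 35.1% in H82 and 6.65% in H146, a ratio of 5.28. Its surroundings stood at 22.5% and 6.91%, a ratio of 3.26, and the span held 17 H82-only and 2 H146-only regions. SEMA4A, a transmembrane semaphorin also known from the immune system, was covered to 33.5% and 10.6%, a ratio of 3.17, with 1.83 in its surroundings and 1.963 when the flanks were widened to 50 kb. SEMA7A, which is lipid-anchored and signals through integrins and PLXNC1, was covered to 25.0% and 5.55%, a ratio of 4.50, with 2.59 in its surroundings. SEMA3G, a secreted semaphorin of blood vessels, was covered to 27.0% and 5.32%, a ratio of 5.07, with 1.67 in its surroundings. SEMA4C, a transmembrane semaphorin, had the highest cover of the family around the TSS, 64.9% in H82 and 36.2% in H146.

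SEMA6D, a transmembrane semaphorin of heart and nerve development, had 34 H82-only and 8 H146-only regions over 590.1 kb and a ratio of 2.44. SEMA6A went the other way, with 7.05% in H82 and 10.4% in H146, a ratio of 0.679 in surroundings that were even at 1.01. SEMA3E, which binds PLXND1 without a neuropilin, was likewise higher in H146, with 4.23% and 5.87%. SEMA4G was the other semaphorin higher in H146, by 12.8% against 13.5%. SEMA3A, the archetypal repellent semaphorin, was covered to 3.11% and 2.33% over its span. Around its TSS the shares were 9.21% and 3.50%.

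Of the receptors for semaphorins, PLXNA4 had the highest ratio. Its span (gene at chr7:132123340-132648688) held 74 H82 regions and 26 H146 regions, of which 55 and 7 were in that line alone. It was covered to 9.81% in H82 and 2.65% in H146, a ratio of 3.71 beside 1.65 in its surroundings. The longest run of consecutive H82-only regions in any of the 68 genes, 13 regions, was shared by PLXNA4 and SLIT3. In PLXNA4 the run lay in a stretch of 125.1 kb without an H146 region. PLXNB3, a receptor for SEMA5A, was covered to 51.1% and 23.4%, a ratio of 2.18, although it held 7 regions in H82 and 9 in H146, so that its H82 regions were fewer and wider. PLXNA2, a receptor for class 3 and class 6 semaphorins, had 20 H82-only and 18 H146-only regions at a ratio of 1.19.

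PLXNA1 and PLXND1 were broadly open in both lines. PLXNA1 was covered to 65.6% in H82 and 73.1% in H146, and PLXND1 to 59.5% and 59.2%. Around the TSS, PLXND1 reached 65.3% and 80.8%. PLXNC1, a receptor for SEMA7A, was covered to 6.84% and 8.88%, the opposite order to its ligand. Of the neuropilins, NRP2 was covered to 19.1% and 13.9%, with 17 H82-only and 6 H146-only regions. NRP1 was covered to 2.41% and 3.93%, and its TSS region measured 1813 bp in H82 and 4100 bp in H146.

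SLIT3 stood apart from the other SLIT ligands. Its span (gene at chr5:168661740-169301139) held 47 H82 and 14 H146 regions, of which 37 and 4 were in that line alone, and was covered to 3.65% and 0.855%. The ratio was 4.26 beside 1.26 in its surroundings. Its run of 13 H82-only regions began near the TSS and lay in a stretch of 593.6 kb without an H146 region. Every H146 region of the gene lay in its later part. SLIT1 and SLIT2 were covered more in H146, SLIT1 with 9.48% and 12.2% and SLIT2 with 5.13% and 5.83%. Their TSS windows of 20 kb followed the same order, with 17.7% against 29.5% for SLIT1 and 24.1% against 30.6% for SLIT2.

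The ROBO receptors had a pooled ratio of 0.922. ROBO1 (chr3:78597239-79767998) had 27 H82-only and 20 H146-only regions and was covered to 2.71% in H82 and 3.30% in H146. Within 10 kb of its TSS the shares were 2.93% and 12.2%, from a single region in each line. ROBO3, which lets commissural axons cross the midline, was covered to 16.4% and 24.1%, a ratio of 0.680 in surroundings that were even at 1.01. ROBO4 lies next to ROBO3 on chromosome 11 and had the opposite order, 12.5% and 8.23%. The spans of ROBO3 and ROBO4 overlap, and the widest H146 region measured 2491 bp in both, so these shares are not independent. ROBO2, the longest of the 68 genes at 1743.3 kb, was covered to 2.40% and 2.33%.

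Netrins were even between the lines, with 8.20% of their pooled spans covered in H82 and 8.19% in H146. NTN1, the main attractant of commissural axons, was covered to 5.06% in H82 and 5.62% in H146, NTN3 to 66.9% and 60.8%, and NTN4 to 4.41% and 4.42%. The netrin receptors were not even. DCC, the receptor for netrin attraction (chr18:52340197-53535899), had 46 H146-only and 6 H82-only regions, the most H146-only regions of all 68 genes. It was covered to 5.30% in H82 and 7.67% in H146, a ratio of 0.692. The surroundings of DCC had a ratio of 0.760 and chromosome 18 as a whole 0.727. At the TSS of DCC the regions were alike, 4960 bp in H82 and 4939 bp in H146.

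UNC5B, a receptor of the repulsive class that is also active in vessels, had the lowest ratio of all 68 genes, 0.591. It was covered to 11.3% in H82 and 19.2% in H146, with 18 H146-only and 5 H82-only regions, and its surroundings had a ratio of 0.871. UNC5C had the highest ratio, 6.25, on low shares of 2.54% and 0.406%, in surroundings that were themselves covered to only 1.41% and 0.215%. Its 11 H82 regions faced 4 in H146. UNC5D was covered to 2.28% and 0.439%, a ratio of 5.19 in surroundings with 1.15, and had 18 H82-only regions and 1 in H146 only. UNC5A was even, with 17.3% and 16.0%. UNC5C, UNC5D and other genes that the naming rule does not cover were named after their values were seen.

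**Figure D5:**
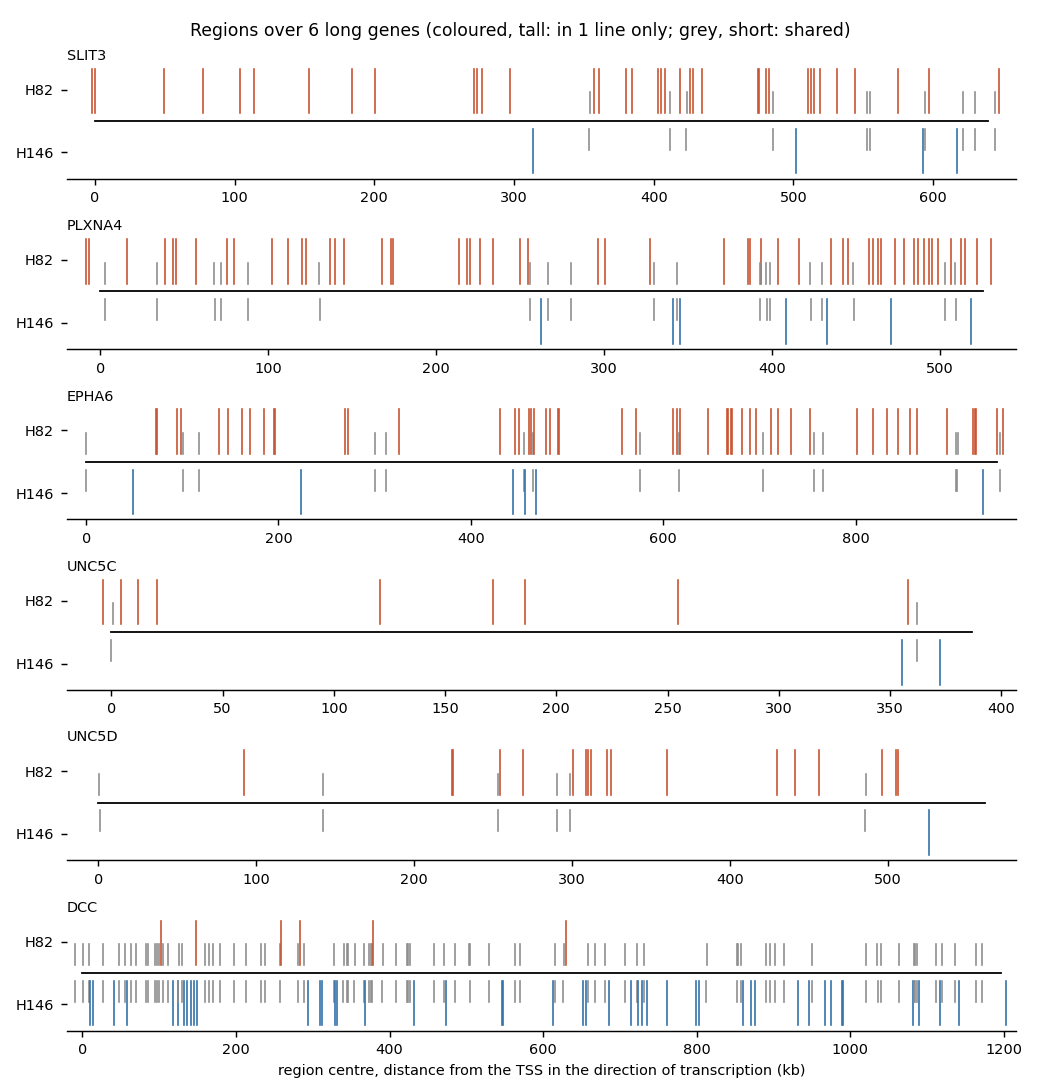
Centres of the regions over 6 long guidance genes by distance from the TSS (kb, x axis), H82 above and H146 below the gene body (black line), with regions found in 1 line only drawn tall in colour and shared regions short in grey. SLIT3, PLXNA4, EPHA6 and UNC5D carry mostly H82-only regions along their length, SLIT3 has no H146 region in its first part, and DCC carries mostly shared and H146-only regions.

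Counted once each, 1496 H82 regions and 1200 H146 regions lay over the 68 spans. Of the H82 regions 840 were shared with H146 (56.2%, 95% Wilson interval 53.6 to 58.65), and of the H146 regions 848 with H82 (70.7%, 68.03 to 73.2), intervals that cover counting error only. A region over several spans can also be counted for each gene. Counted so, the shares were 56.1% and 70.8% for the guidance genes and 61.1% and 73.7% for all genes. The guidance genes are longer, with a median of 69.7 kb against 27.5 kb, and over all genes the shares fell with length. Under 50 kb they were 52.5% and 85.2%, against 65.9% and 80.3% of all genes. From 50 to 200 kb they were 66.4% and 68.9%, against 58.0% and 71.4%. At 200 kb or more they were 53.2% and 67.4%, against 57.6% and 66.7%. The intervals above do not apply to these per-gene shares. Counted once each, the spans of all genes held 78182 shared and 53516 line-only regions in H82. In H146 they held 78551 shared and 30952 line-only regions. The 656 H82-only and 352 H146-only regions were mostly intronic. Introns held 79.1% of the H82-only and 86.4% of the H146-only regions by their centre, against 72.1% and 74.9% over all genes. Promoters held 5 of the H82-only regions (0.762%) and 1 of the H146-only regions (0.284%), against 2.22% and 1.54% over all genes. Line-only regions were narrow, with medians of 411.5 bp in H82 and 309 bp in H146, while shared ones had medians of 668.5 and 672 bp. Over all genes the medians were similar, 377 and 315 bp for line-only regions and 681 and 711 bp for shared ones.

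Line-only regions over the guidance genes also differed in sequence. The words counted on both strands were CAGATG, an E-box of the kind bound by NEUROD1, CAGCTG, another form of the E-box, TAATCC, the core of the sites of OTX-like homeodomain factors, and TGTTTAC, the core of forkhead sites. H82-only regions summed to 363.6 kb and H146-only regions to 128 kb. The density of TAATCC was 0.990 per kb of H82-only sequence and 0.289 per kb of H146-only sequence. On the log2 scale the H82 density was higher by 1.78 (SE 0.25, from counting alone), and over all genes by 1.42. The word stands in 6.36% of 35116 RefSeq promoters of 300 bp. TGTTTAC had densities of 0.0880 and 0.399 per kb, from 32 and 51 matches, and a log2 difference of -2.18 (SE 0.33). Over all genes the difference was -1.202, and 3.42% of promoters hold the word. CAGATG had densities of 1.25 and 0.899 per kb and a log2 difference of 0.47 (SE 0.15), beside 0.42 over all genes, and is in 14.7% of promoters. CAGCTG was close to even over the guidance genes, with 0.869 and 0.820 per kb, and is in 18.0% of promoters. Its log2 difference was 0.08 (95% counting interval -0.24 to 0.40). Over all genes its difference was -0.097 (95% counting interval -0.130 to -0.063). A match is a description of the letters and not a bound site. The words were chosen with earlier results of these data known. Counting errors take each match as independent and rest on 1 list per line, so they are no test between the lines.

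TAATCC in its reverse form, with a G directly before it and a C directly after it, also belongs to the Alu repeat sequence. Of the 360 TAATCC matches in H82-only regions over the guidance genes, 81 had these flanking bases (22.5%), and of the 37 in H146-only regions 4 did (10.8%). Without them the density was still higher in H82-only regions, by 1.57 on the log2 scale (SE 0.27), beside 1.56 (SE 0.03) over all genes. In shared regions TAATCC stood at 0.374 per kb in H82 and 0.340 in H146, near the level in H146-only regions.

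A few narrow line-only regions are printed to show such matches in place. They are among the 3 per line with most matches, the narrower first. The choice was made from 139 H82-only and 136 H146-only regions of at most 300 bp that lie wholly in introns. Regions over UNC5D were left out of this choice. The printed regions thus show what the words look like and not how often they occur. Sequences are hg38, plus strand, with matches to the 4 words on either strand in capitals. The H82-only ones lie in EFNA5 (chr5:107593155-107593354) and SLIT2 (chr4:20436016-20436219). The H146-only ones lie in NRP2 (chr2:205702658-205702899), SLIT3 (chr5:168799317-168799533) and ROBO1 (chr3:78839846-78840087). The EFNA5 region held 2 CAGATG matches and 1 CAGCTG match, and the SLIT2 region 1 match to each word except CAGCTG. The NRP2 region held 2 CAGATG, 1 CAGCTG and 2 TGTTTAC matches. The SLIT3 region held 3 CAGATG matches, although it was open in H146 alone. In the ROBO1 region a CAGATG match and the TGTTTAC match overlap.
EFNA5 H82: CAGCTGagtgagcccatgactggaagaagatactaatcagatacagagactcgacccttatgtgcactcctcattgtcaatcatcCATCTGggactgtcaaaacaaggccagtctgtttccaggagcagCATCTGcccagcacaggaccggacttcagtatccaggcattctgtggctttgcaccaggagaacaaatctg
SLIT2 H82: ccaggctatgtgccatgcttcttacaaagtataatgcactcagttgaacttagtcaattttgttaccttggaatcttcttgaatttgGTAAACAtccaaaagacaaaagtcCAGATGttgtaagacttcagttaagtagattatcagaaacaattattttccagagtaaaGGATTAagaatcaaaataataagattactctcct
NRP2 H146: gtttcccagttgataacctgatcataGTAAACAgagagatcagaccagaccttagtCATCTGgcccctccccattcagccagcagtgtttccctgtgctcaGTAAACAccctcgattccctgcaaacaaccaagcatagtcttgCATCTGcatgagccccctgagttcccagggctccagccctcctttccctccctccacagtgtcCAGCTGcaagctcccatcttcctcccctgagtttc
SLIT3 H146: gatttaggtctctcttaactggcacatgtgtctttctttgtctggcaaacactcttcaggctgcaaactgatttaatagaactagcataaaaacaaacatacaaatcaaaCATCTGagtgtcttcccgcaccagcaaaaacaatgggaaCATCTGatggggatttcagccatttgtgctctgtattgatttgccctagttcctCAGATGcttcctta
ROBO1 H146: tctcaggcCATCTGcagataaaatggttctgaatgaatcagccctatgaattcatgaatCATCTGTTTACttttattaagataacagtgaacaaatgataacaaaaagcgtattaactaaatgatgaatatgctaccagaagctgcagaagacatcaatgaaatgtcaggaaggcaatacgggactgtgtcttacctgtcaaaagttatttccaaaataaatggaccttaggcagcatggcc

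A separate list of 42 partners and effectors took co-receptors, other guidance cues and the cytoplasmic proteins that carry the signal to the cytoskeleton. Of them 38 had a TSS region in both lines (90.5%, against 75.4% of all genes), FLRT2 and NTN5 in H82 only, and MICAL1 and NGEF in neither. A span covered at least 2 times as much in H82 was found at 4 of the 42 (9.52%, against 16.3% of all genes), and at 0 in H146. Those 4 were ABL2, a kinase of the cytoskeleton, with 10.2% and 3.36%, DRAXIN, a secreted guidance cue, with 25.5% and 8.80%, FYN, a kinase downstream of several guidance receptors, with 10.6% and 3.97%, and L1CAM, an adhesion molecule that forms a complex with NRP1, with 33.9% and 16.0%.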

How the data were processed

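Open chromatin was profiled by ATAC-seq in H82 (3 untreated and 3 FHD-286 libraries) and H146 (4 and 3). Per the labels and the methods, the authors trimmed reads with Trim Galore 0.4.4, aligned them to hg38 with Bowtie2 2.3.4, removed duplicates, called peaks in each library with MACS2, dropped blacklisted regions and joined peaks lying at most 500 bp apart into a union. The deposited lists hold 1 such union for each line, so a wide region can hold several peaks. Counting with featureCounts 1.6.0 and testing with DESeq2 were done by the authors on counts not used here. The deposited values are region coordinates (chromosome, start and end), with no count, height or sample, and 0 columns of single samples were left aside. Settings of the peak caller beyond this are not given in the sources used here, and precision could not be estimated because depth per library is unknown. No region passed a chromosome end of the hg38 reference, the narrowest measured 200 bp, and no 2 regions of a list lay within 500 bp of each other.

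Overlaps with GENCODE release 44 genes were computed in Python 3.11.15 with numpy 2.4.6. The scripts were tested on simulated intervals, and bedtools 2.31.1 gave the same covered bases in all 20033 gene spans of each line. Coordinates are 1-based. A region counted as shared when at least 1 base overlapped a region of the other line, and a covered share at least 2 times as high was the threshold of size. With 1 list per line, no test was run. Named were members in 1 line only or neither at the TSS, the 5 per direction with the largest difference in covered share, the 3 per line with most line-only regions and the member of each family with the highest cover around the TSS. The members, lists and words were chosen with earlier results of these data known. Alternatives changed windows, start sites, region width, flanks, scaling, fold and overlap. The MANE Select start, the scaling by surroundings and the longer word were added after the data were seen. Bases of neighbouring genes in a span were kept. One marker gene and 1 of the 3 H82-only sequences chosen for printing are not reported here.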

Additional observations from a re-analysis of the deposited data

How the results depend on the processing

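Values here rest on 1 list per line without depth, so a region missing from a list may be a region below its detection limit. No paired analysis was possible because the lists pool all libraries of a line and carry no replicate numbers. Of 71 alternatives for the main values, 42 stayed within the limit set for a change and 29 moved. Genes with a TSS region in both lines numbered 44 by region centre, which counted as within the limit. Genes with a TSS region in H82 only numbered 1 with a window of 5 kb and 5 with regions of at least 500 bp. In H146 only they numbered 0 with windows of 2 or 5 kb, with any coding transcript start and with MANE Select starts, 2 with regions of at least 500 bp and 3 by region centre. In neither line they numbered 2 with a window of 500 bp, 0 with 5 kb, with any coding start and with MANE Select starts, 3 with regions of at least 500 bp and 17 by region centre. Spans at least 2 times higher in H82 fell to 4 when scaled by the surroundings. They numbered 17 with flanks of 50 kb, by number of regions or scaled by line totals, which counted as within the limit. Those in H146 numbered 1 for the gene body alone and with either scaling, and 3 with regions of at least 500 bp or a fold of 1.5. Around the TSS, those in H146 numbered 2 within 5 kb, and 3 with regions of at least 500 bp or scaling by line totals. Shared regions fell to 41.7% of H82 and 51.8% of H146 with an overlap of at least 50% of both, and counting only regions of at least 500 bp gave 58.8% for H82. Taken as shares of regions that hold the word, the log2 ratio was 0.78 for CAGATG and -1.39 for TGTTTAC, and in the central 200 bp it was 2.28 for TAATCC. Among the 22 genes, 16 ratios moved without changing direction. By number of regions the ratio was 1.11 for EFNA2, 1.31 for SEMA3C and 1.60 for SEMA6C, all then under 2, and 2.25 to 3.43 for EPHA8, SEMA3G, SEMA6B, UNC5C and UNC5D. With flanks of 50 kb it was 1.963 for SEMA4A, 1.44 for PLXNB3 and 2.31 for SEMA3G. Some ratios that stayed within the limit also fell under 2. With flanks of 50 kb these were EPHA10 (1.875), SEMA3C (1.773), SEMA3F (1.977) and SEMA6C (1.701). By number of regions they were EFNB3 (1.429), EPHB6 (1.8), SEMA3F (1.444) and SEMA6D (1.735). Scaled by line totals they were EFNB3 (1.696), EPHB6 (1.804), SEMA3C (1.743), SEMA3F (1.752) and PLXNB3 (1.812). SEMA3F was also at 1.998 in the gene body alone and at 1.811 without 1 kb around other coding TSSs. The ratio rose to 12.96 for SEMA3G and 11.03 for SEMA7A in the gene body alone. With regions of at least 500 bp it rose to 3.56 for SEMA3C, 9.79 for UNC5C and 17.4 for UNC5D. PLXNB3 reversed by number of regions, to a ratio of 0.778. The cause of these moves was not tested.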

Other observations

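The guidance genes covered more in H82 can be set beside their chromosomes. On chromosome 1, whose covered share had an H82 to H146 ratio of 1.53, 6 of 10 guidance genes were covered at least 2 times as much in H82 (EPHA2, EPHA8, EPHA10, EPHB2, SEMA4A and SEMA6C), beside 30.9% of all genes there. On chromosome 15, with a ratio of 1.90, all 3 were (SEMA4B, SEMA6D and SEMA7A), beside 49.1% of all genes there. On chromosome 19 both were (EFNA2 and SEMA6B), although its ratio was 1.21 and 14.7% of all its genes were past that fold. On chromosome 3, with a ratio of 1.18, 3 of 13 were (EPHA6, SEMA3F and SEMA3G), beside 15.9% of all genes there, and on chromosome 7, with 1.36, 3 of 8 (EPHB6, SEMA3C and PLXNA4), beside 21.5%. On chromosome 2, with a ratio of 1.29, 0 of 4 were, beside 16.0%. None of the 4 guidance genes on chromosome 10, with a ratio of 0.914, was past that fold, beside 4.66% of all its genes. The part of DNA copies in this was not tested.

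By length, the guidance genes divided as follows, with no test. Of the 30 guidance genes under 50 kb, 12 were covered at least 2 times as much in H82 (40.0%, against 16.6% of all genes of that length), of the 18 from 50 to 200 kb 3 were (16.7%, against 15.7%), and of the 20 of at least 200 kb 7 were (35.0%, against 16.1%). The 10 kb flanks make up a larger part of the span in the short genes.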
